A study of Homo sapiens with 2 samples.

Results

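Transcripts of the integrin subunits that epithelial cells use were compared between 1 library of HCT116 cells labelled as an SRD5A1 knockdown and 1 library of HCT116 cells labelled as a control. The 10 genes chosen were ITGA2, ITGA3, ITGA5, ITGA6, ITGAV, ITGB1, ITGB3, ITGB4, ITGB5 and ITGB6, taken by gene symbol from a table of 28615 symbols, and 9 of them had a row. ITGB6 was not analysed here. HCT116 is an established human colorectal cancer cell line, and SRD5A1 encodes steroid 5-alpha reductase type 1. The sample titles add the tag "Dox" to the knockdown and "KD" to the control without saying what either tag means, and no agent, dose or time is given. The labels name no vector, clone or inducer, so neither the means of the knockdown nor the treatment of the control is known. There was 1 library per group, so no test between conditions was possible, every difference describes these 2 libraries, and the spread between cultures is unknown.

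An integrin is a receptor made of 1 alpha and 1 beta subunit that spans the plasma membrane, binds extracellular matrix outside the cell and connects to the cytoskeleton inside it. In epithelia, ITGA2 paired with ITGB1 binds collagen, ITGA3 and ITGA6 paired with ITGB1 bind laminins, and ITGA6 paired with ITGB4 anchors cells to laminin at hemidesmosomes. ITGA5 paired with ITGB1, and ITGAV paired with ITGB1, ITGB3, ITGB5 or ITGB6, recognise the RGD peptide motif of fibronectin, vitronectin and related ligands.

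The libraries differed in depth, with 54740670 counts for the knockdown and 41814981 for the control, and in composition, with 12.8% of counts from mitochondrially encoded genes in the knockdown library against 18.3% in the control. The part of this composition in the differences of the members was not tested. SRD5A1 was at 6.25 FPKM (3119 counts) in the knockdown and 10.8 FPKM (4101 counts) in the control library. Level was measured in FPKM, which divides fragments by transcript length and by the library total. Differences are in log2(FPKM + 1), knockdown minus control, which understates the difference of weakly expressed genes. The median difference over the 10143 symbols at a mean of at least 1 FPKM (expressed genes) was 0.30, so each subunit's distance from that median is given too. A gene can pass this threshold through 1 library alone, where it is high. Of 8 epithelial and colon markers, 6 reached 1 FPKM in the knockdown library and 5 in the control, with a summed level of 879 FPKM in the knockdown and 408 FPKM in the control. Most of that sum was KRT8 and KRT18. KRT8 was at 414 FPKM in the knockdown and 256 FPKM in the control. KRT18 was at 346 FPKM in the knockdown and 74.5 FPKM in the control. EPCAM was the only marker of the 8 that was lower in the knockdown library, at 30.2 FPKM against 39.7 FPKM in the control. Of the weakly expressed markers, VIL1, a microvillus protein, had 4 counts in the knockdown library and 0 counts in the control, and KRT20, a keratin of differentiated colon, was at 0.979 FPKM in the knockdown and 0.189 FPKM in the control. The 7 leukocyte markers summed to 0.127 FPKM in the knockdown and 0.272 FPKM in the control, with CD3E at 0 counts in both libraries. The protocol text mentions an adipose sample, and the 2 adipose markers with a row, PLIN1 and CIDEC, summed to 0.117 FPKM in the knockdown and 0.319 FPKM in the control. They went opposite ways. PLIN1 had 0 counts in the knockdown library against 61 counts in the control, and CIDEC had 16 counts in the knockdown against 0 counts in the control. The endothelial marker CDH5 and the hepatocyte marker ALB were, like CD3E, at 0 counts in both libraries. Of the other hepatocyte markers, SERPINA1 was at 4.74 FPKM in the knockdown and 5.40 FPKM in the control, and APOA1 had 0 counts in the knockdown library against 13 counts in the control. The 4 endothelial markers summed to 0.192 FPKM in the knockdown and 0.117 FPKM in the control, and the 3 hepatocyte markers to 4.74 FPKM in the knockdown and 5.58 FPKM in the control, with 1 of the 3 at 1 FPKM or more in each library. Of the fibroblast list only COL1A1 reached 1 FPKM, at 2.39 FPKM in the knockdown and 4.02 FPKM in the control. The weaker fibroblast markers did not share 1 direction. COL1A2 had 88 counts in the knockdown library against 18 counts in the control, and LUM 4 against 0. PDGFRB had 30 counts in the knockdown library against 34 counts in the control, and THY1 0 against 8. In bulk RNA, fewer cells that express a gene and less RNA of it per cell cannot be told apart.

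Promoter sequence is shown for 1 receptor pair, the collagen receptor subunits ITGA2 and ITGB1, because their transcripts lay on opposite sides of 0 while the proteins work as a pair. RefSeq windows (GRCh38.p14) matched 7 of the 10 members by symbol, and the 250 bases before the annotated start are printed 5′ to 3′ on the strand of the gene. Capitals mark the GC box GGGCGG on either strand.
ITGA2: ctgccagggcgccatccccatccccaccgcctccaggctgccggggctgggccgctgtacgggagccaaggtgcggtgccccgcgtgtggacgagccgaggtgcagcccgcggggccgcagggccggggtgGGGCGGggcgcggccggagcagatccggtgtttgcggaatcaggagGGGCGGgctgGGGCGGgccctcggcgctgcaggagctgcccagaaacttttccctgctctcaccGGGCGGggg
ITGB1: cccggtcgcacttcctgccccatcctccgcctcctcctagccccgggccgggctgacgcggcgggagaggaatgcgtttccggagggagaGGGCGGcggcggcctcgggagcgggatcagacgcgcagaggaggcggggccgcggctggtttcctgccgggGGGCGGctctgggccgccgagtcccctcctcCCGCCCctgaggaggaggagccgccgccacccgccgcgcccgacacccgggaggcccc
The ITGA2 window is chr5:52989102-52989351 on the plus strand, and the ITGB1 window is chr10:32958231-32958480 on the minus strand, the first of the 2 windows listed for that gene. The start is that of RefSeq. In the deposited positions ITGB1 runs from 32900318 to 33005792, so its window lies inside that locus and not before its start. Exons of other GENCODE transcripts of the genes cover 26 bases of the ITGA2 window and 2 bases of the ITGB1 window. ITGA2 held 4 matches to GGGCGG and ITGB1 held 3, with no overlaps, and 42.6% of 35116 windows of this length held at least 1. The sequence TGANTCA, searched on both strands, was in neither window and was in 6.6% of all windows. The ITGA2 window was 76.4% G or C, with 26 CG pairs, and the ITGB1 window 78.4%, with 32 CG pairs. Both printed windows were thus GC-rich and held GC boxes, and a match of letters describes the window alone. The second ITGB1 window, chr10:32935559-32935808, was 41.6% G or C, with 4 CG pairs and 0 matches to GGGCGG.

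The subunits split into a group that was higher and a group that was lower in the knockdown library. ITGA2, ITGA3, ITGA5, ITGB4 and ITGB5 were higher, and ITGA6, ITGAV, ITGB1 and ITGB3 were lower. All 9 are protein-coding genes, and exon numbers below are those of the principal GENCODE transcript. Of the 9 genes, 7 were expressed, and 3 of these (ITGB4, ITGA3 and ITGA2) were at least 2-fold higher, against 20.9% of all expressed genes. No expressed member was 2-fold lower, against 6.83% of all expressed genes, while the CPM ratios (counts scaled to 1000000 in each library) of the weakly expressed ITGAV and ITGB3 were below 0.5. The counting interval of the CPM ratio left out 1 for all 9 members, and for 90.0% of all expressed genes, so the members do not stand out by it. The sign of all 9 differences was kept with the median ratio set to 1, with upper quartile scaling and with TMM scaling, and that of the 7 expressed members also after the trend on GC content and transcript length was taken out. The median ratio, upper quartile and TMM scalings lower all knockdown values, so they could turn only the sign of a higher member.

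**Figure D1:**
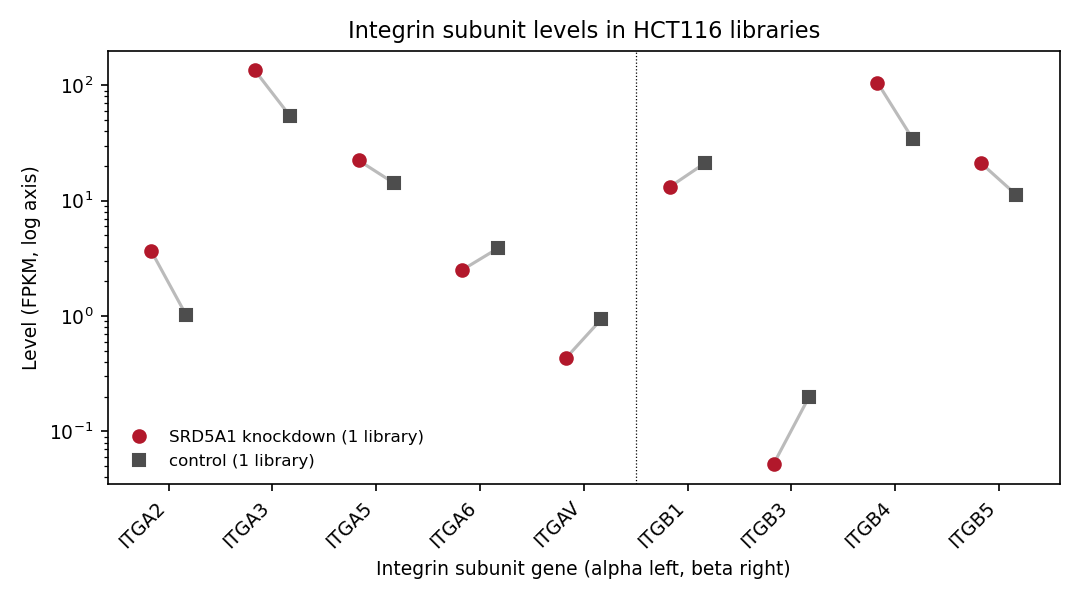
Level of 9 integrin subunit genes in FPKM on a log axis, with a circle for the SRD5A1 knockdown library and a square for the control library (1 library each, no error bars). ITGA3 and ITGB4 are the 2 most abundant subunits in both libraries and are higher in the knockdown library, while ITGB1, ITGA6, ITGAV and ITGB3 are lower there.

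Laminin and collagen receptor subunits held the most abundant members. ITGA3 (ENSG00000005884, GRCh38 chromosome 17, 50055968 to 50090480, plus strand, 26 exons) encodes the alpha subunit of a laminin receptor on basal epithelial surfaces. It was at 134 FPKM (86077 counts) in the knockdown library and 54.0 FPKM (26414 counts) in the control library. Its ratio of CPM was 2.49 (exact 95% counting interval 2.46 to 2.52) and the difference 1.30, or 0.999 above the median of expressed genes. ITGA3 was the most abundant subunit in both libraries. With the median ratio set to 1 its difference was 0.92 and with upper quartile scaling 0.82, so its place past 2-fold depended on the scaling.

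ITGB4 (ENSG00000132470, chromosome 17, 75721328 to 75757818, plus strand, 40 exons) encodes the beta subunit of hemidesmosomes, whose long cytoplasmic tail binds plectin. Its level was 106 FPKM (46637 counts) in the knockdown and 34.3 FPKM (11561 counts) in the control library. The CPM ratio was 3.08 (3.02 to 3.15) and the difference 1.60, or 1.30 above the median, which exceeded 92.5% of expressed genes. ITGB4 stayed past 2-fold under each of the scalings, at 1.12 to 1.60. GALK1, on the other strand, overlaps the ITGB4 locus and held 3310 counts in the knockdown library against 2811 counts in the control, which is 7.10% of the ITGB4 counts in the knockdown library and 24.3% in the control. Without stated strand use, reads of the overlap cannot be told apart, and their part in the ITGB4 value was not tested.

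ITGA2 (ENSG00000164171, chromosome 5, 52989340 to 53094779, plus strand, 30 exons), the collagen-binding alpha subunit, was a low-level gene. It was at 3.68 FPKM (1901 counts) in the knockdown and 1.01 FPKM (399 counts) in the control library. Its CPM ratio of 3.64 (3.27 to 4.06) was the highest of the 9 members. The difference on the log2(FPKM + 1) scale was 1.22, and it depended on the pseudocount, at 1.77 with 0.1 and 0.53 with 5. It was 0.93 with the median ratio set to 1 and 0.85 with upper quartile scaling, both short of 2-fold.

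The partners of these subunits were lower. ITGB1 (ENSG00000150093, chromosome 10, 32900318 to 33005792, minus strand, 16 exons) encodes the beta subunit that pairs with all 5 alpha members. Its level was 13.2 FPKM (5178 counts) in the knockdown and 21.2 FPKM (6366 counts) in the control library. The ratio of CPM was 0.621 (0.599 to 0.645) and the difference -0.65, or -0.95 relative to the median. With upper quartile scaling the difference was -1.09, the only setting of the log2 difference in which a member was 2-fold lower. ITGB1 ranked 5th among the 9 levels in the knockdown library, where ITGA5 and ITGB5 stood above it, and 3rd in the control library.

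ITGA6 (ENSG00000091409, chromosome 2, 172427354 to 172506459, plus strand, 26 exons), the laminin-binding alpha subunit that pairs with both ITGB1 and ITGB4, went with ITGB1. It was at 2.51 FPKM (1106 counts) in the knockdown and 3.85 FPKM (1293 counts) in the control library. The CPM ratio was 0.653 (0.602 to 0.709) and the difference -0.46. The antisense gene ITGA6-AS1 within the locus had 0 counts in the knockdown library against 9 counts in the control. Apart from GALK1, no gene that overlaps a member's locus held more than 12 counts in either library.

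Among RGD receptor subunits, ITGA5 and ITGB5 were higher, and ITGAV and ITGB3 were below 1 FPKM. ITGA5 (ENSG00000161638, chromosome 12, 54395261 to 54419266, minus strand, 30 exons), the alpha subunit of the main fibronectin receptor, was at 22.3 FPKM (10774 counts) in the knockdown and 14.2 FPKM (5238 counts) in the control library. In CPM this is a ratio of 1.57 (1.52 to 1.62). Its difference of 0.62 lay 0.32 above the median of expressed genes and was between 0.16 and 0.37 under the other scalings and after the GC and length trend was taken out, so ITGA5 was close to the bulk of expressed genes.

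ITGB5 (ENSG00000082781, chromosome 3, 124761948 to 124901418, minus strand, 15 exons), a beta subunit of vitronectin receptors, was at 21.1 FPKM (8972 counts) in the knockdown and 11.2 FPKM (3642 counts) in the control library. The CPM ratio was 1.88 (1.81 to 1.96) and the difference 0.86, or 0.56 above the median. ITGB5 exceeded 74.5% of expressed genes and was short of 2-fold.

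ITGAV and ITGB3 were below a mean of 1 FPKM and take no part in the counts of 2-fold genes among expressed members. ITGAV (ENSG00000138448, chromosome 2, 186590056 to 186680901, plus strand, 30 exons), the alpha partner of ITGB3, ITGB5 and ITGB6, was at 0.434 FPKM (236 counts) in the knockdown and 0.940 FPKM (389 counts) in the control library. The CPM ratio was 0.463 (0.393 to 0.546). ITGB3 (ENSG00000259207, chromosome 17, 47253846 to 47311816, plus strand, 15 exons), a vitronectin receptor subunit best known from platelets and osteoclasts, was at 0.0524 FPKM (16 counts) in the knockdown and 0.198 FPKM (45 counts) in the control library, with a CPM ratio of 0.272 (0.143 to 0.490). Both had lower levels in the knockdown library, and the pseudocount of 1 compresses their differences to -0.44 for ITGAV and -0.19 for ITGB3.

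The order of levels differed between the libraries only in its middle. In the knockdown library the order of FPKM, high to low, was ITGA3, ITGB4, ITGA5, ITGB5, ITGB1, ITGA2, ITGA6, ITGAV and ITGB3. In the control library it was ITGA3, ITGB4, ITGB1, ITGA5, ITGB5, ITGA6, ITGA2, ITGAV and ITGB3. The ITGA2 and ITGAV levels in the control library did not differ beyond counting error, with an FPKM ratio of 1.08 (0.933 to 1.24). The closest neighbours in the knockdown library were ITGA5 and ITGB5, with a ratio of 1.06 (1.03 to 1.09). All other neighbours in either order were further apart than their counting intervals.

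**Figure D2:**
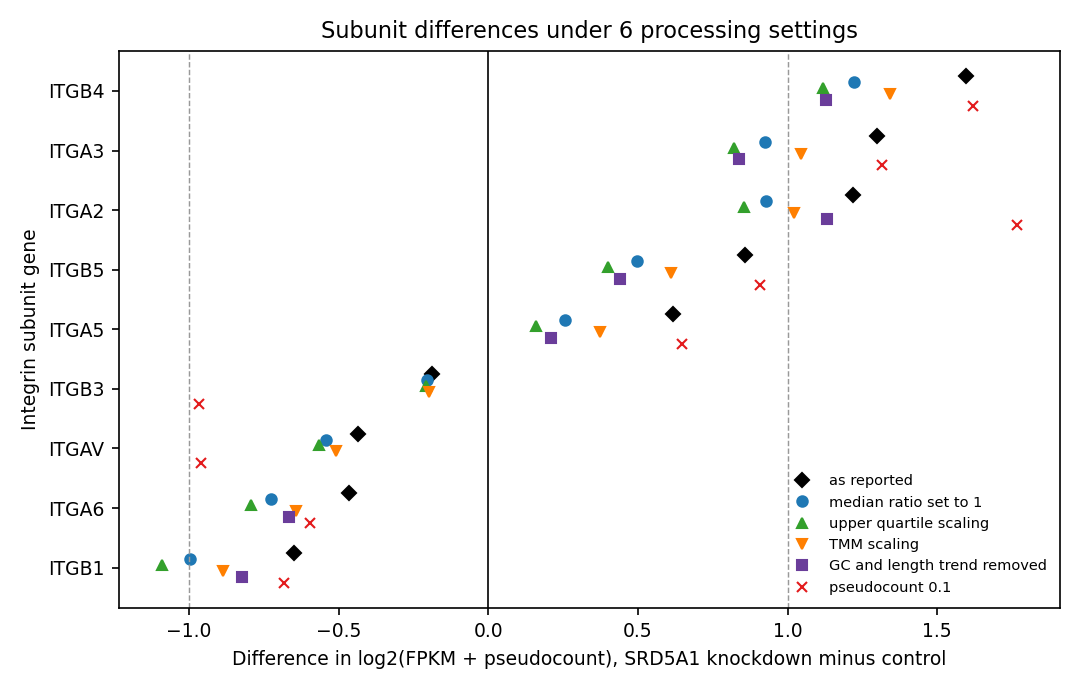
Difference in log2(FPKM + pseudocount), SRD5A1 knockdown minus control, for 9 subunits under 6 settings (1 symbol each), with dashed lines at 2-fold. The sign of each subunit is the same under every setting drawn, ITGB4 stays past 2-fold, and ITGA3 and ITGA2 move across that line with the scaling; ITGAV and ITGB3 have no value in the setting that takes out GC and length.

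The share of each subunit within its own family does not depend on the scaling between libraries. The 5 alpha genes summed to 163 FPKM in the knockdown library and 74.0 FPKM in the control, and the 4 beta genes to 140 FPKM in the knockdown and 66.8 FPKM in the control. Within the beta family, ITGB4 took 75.5% in the knockdown library and 51.2% in the control, while ITGB1 took 9.42% in the knockdown and 31.7% in the control. The share of ITGB5 was 15.1% in the knockdown and 16.7% in the control. The beta pool of the knockdown library was thus weighted to the hemidesmosomal subunit, by 24.2 percentage points for ITGB4 and -22.3 for ITGB1 (knockdown minus control).

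Within the alpha family, ITGA3 took 82.3% in the knockdown library and 73.0% in the control. ITGA5 took 13.7% in the knockdown and 19.2% in the control, although its own level was higher in the knockdown. ITGA6 took 1.54% in the knockdown and 5.20% in the control. ITGA2 took 2.25% in the knockdown and 1.37% in the control, and ITGAV took 0.266% in the knockdown and 1.27% in the control. ITGA3 and ITGA2 therefore gained share in the knockdown library, and the other 3 alpha genes had smaller shares there.

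**Figure D3:**
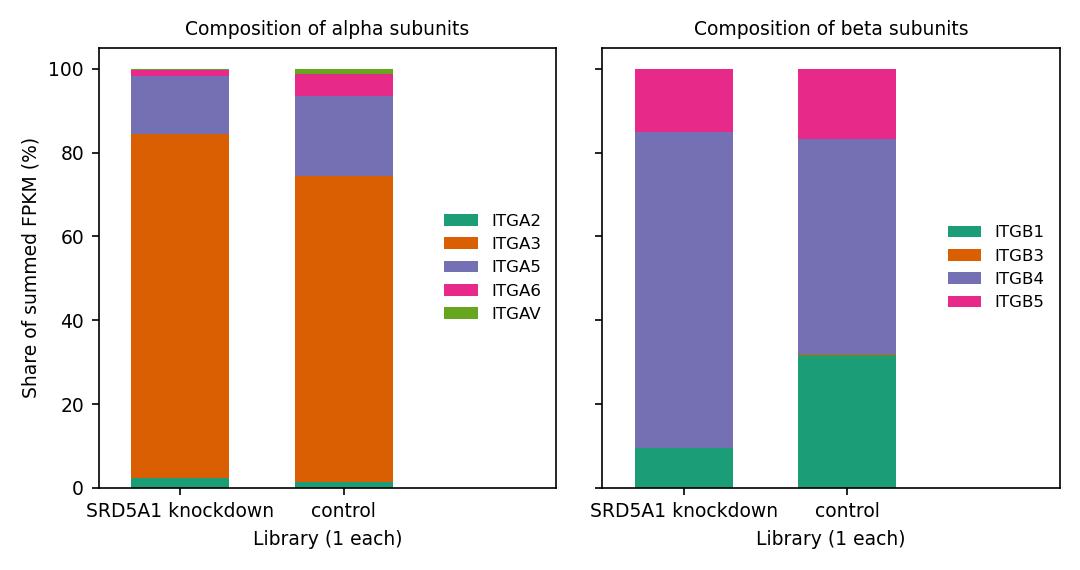
Share (%) of each subunit in the summed FPKM of the 5 alpha genes (left) and of the 4 beta genes (right), SRD5A1 knockdown beside control, 1 library each. ITGB1 makes up 9.42% of the beta sum in the knockdown library and 31.7% in the control, and ITGA3 is the largest alpha share in both.

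Ratios between partner transcripts moved with these shares. ITGB4 stood to ITGB1 as 8.01 to 1 in the knockdown (counting interval 7.79 to 8.25) and as 1.61 to 1 in the control library (1.57 to 1.67), a ratio of ratios of 4.96 (4.76 to 5.18). ITGA6 was 0.0238 of ITGB4 in the knockdown library and 0.112 of it in the control. In transcripts per length, ITGB4 therefore exceeded its only alpha partner 42.0-fold in the knockdown and 8.90-fold in the control library. ITGA6 to ITGB1 was 0.191 in the knockdown library and 0.181 in the control, with a ratio of ratios of 1.05 (0.963 to 1.15), an interval that holds 1.

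The alpha genes together were 12.4 times the ITGB1 level in the knockdown library and 3.49 times in the control. ITGA3 to ITGB1 was 10.2 in the knockdown library and 2.55 in the control. ITGA2 to ITGB1 was 0.280 in the knockdown library and 0.0477 in the control, and the ratio of ratios, 5.86 (5.23 to 6.57), was higher than that of ITGA5 to ITGB1, 2.53 (2.41 to 2.66). ITGAV was 0.0206 of the summed ITGB3 and ITGB5 level in the knockdown library and 0.0826 of it in the control. Nearly all of that sum was ITGB5, so ITGAV was far below ITGB5 in both libraries. It was above ITGB3 in both, with an FPKM ratio of 8.29 in the knockdown library and 4.74 in the control. These are ratios of transcripts, and protein was not measured.

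GC content moved with the differences. Over all expressed genes the median difference was 0.09 in the quartile with the lowest GC content of the longest annotated transcript (up to 45.5%) and 0.41 in the quartile with the highest (58.8% and above). ITGA3 (61.3% GC) and ITGB4 (63.7%) are in the highest quartile, and ITGA6 (42.9%), ITGB1 (40.0%), ITGAV (38.3%) and ITGA2 (40.2%) are in the lowest. ITGA5 (54.5%) and ITGB5 (54.3%) are in the quartile below the highest, where the median difference was 0.44. After the trend on GC and length was taken out, the difference was 1.13 for ITGB4, 0.84 for ITGA3, -0.82 for ITGB1 and -0.67 for ITGA6. ITGA2 and ITGB1 have like GC content and lay on opposite sides of 0, at 1.13 and -0.82 on that scale.

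**Figure D4:**
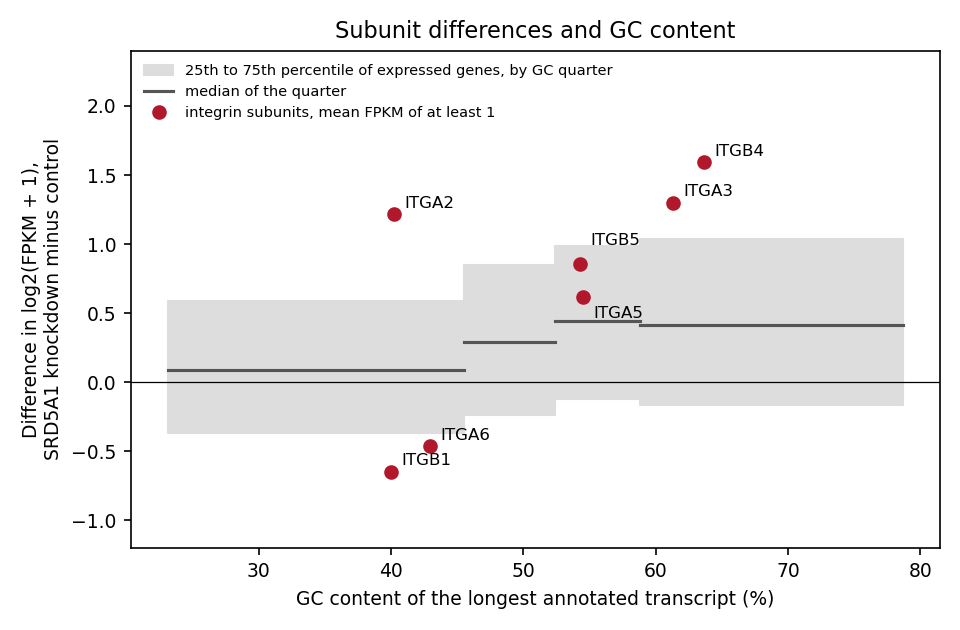
Difference in log2(FPKM + 1), SRD5A1 knockdown minus control, against GC content (%) of the longest annotated transcript for the 7 expressed subunits (points), over the median (line) and the 25th to 75th percentile (grey) of all expressed genes in each quartile of GC content. ITGB4, ITGA3 and ITGA2 lie above the grey band of their quartile, and ITGB1 and ITGA6 below it.

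The remaining integrin genes were mostly below a mean of 1 FPKM. Of 16 other subunits, 3 were above it, 13 were below it with at most 144 counts in the knockdown library and 151 counts in the control, and 12 of those 13 had a count. Of the 3, ITGAX and ITGAE were named after their values were seen. ITGA7, a laminin-binding subunit best known from muscle, was at 5.27 FPKM in the knockdown library and 8.81 FPKM in the control (-0.64). ITGAX, a leukocyte subunit, was at 1.16 FPKM in the knockdown and 5.14 FPKM in the control (-1.51), while its partner ITGB2 had 27 counts in the knockdown library and 9 counts in the control. ITGAE was at 2.76 FPKM in the knockdown library and 2.24 FPKM in the control (0.21, with a sign that turned with the scaling). ITGA8 had 0 counts in both libraries, which allows up to 0.0548 CPM in the knockdown library and 0.0717 CPM in the control. ITGB8, another beta partner of ITGAV, had 8 counts in the knockdown library and 19 counts in the control.

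Expressed laminin chains, the ligands of ITGA3, ITGA6 and ITGB4, had differences between -0.97 and 0.09. Of 11 chains 7 were expressed, of which 0 were at 0.5 or more (40.8% of all expressed genes) and 3 at -0.5 or less (16.3%), with a median of -0.34 against 0.30 over all expressed genes. Those 3 were LAMB1, at 5.06 FPKM in the knockdown library and 10.9 FPKM in the control (-0.97), LAMB3, at 24.8 FPKM in the knockdown and 47.6 FPKM in the control (-0.91), and LAMC1, at 7.53 FPKM in the knockdown and 11.9 FPKM in the control (-0.59). LAMB3 and LAMA3 are chains of the laminin of hemidesmosomes. LAMA3 was below the expression threshold, at 0.123 FPKM in the knockdown library and 0.322 FPKM in the control. Also below it, LAMA2 had 197 counts in the knockdown library against 20 counts in the control, a CPM ratio of 7.52 (4.74 to 12.6) that goes against the expressed chains (named after its values were seen). LAMA5, the alpha chain of a second epithelial laminin, was at 18.7 FPKM in the knockdown and 17.5 FPKM in the control (0.09), and its sign turned with the scaling.

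Of 21 RGD and collagen ligands with a row, 10 were expressed, 0 at 0.5 or more (40.8% of all expressed genes) and 5 at -0.5 or less (16.3%), with a median of -0.39 against 0.30 over all expressed genes. At least 2-fold lower were 3 of them, against 6.83% of all expressed genes. FN1, the fibronectin ligand of ITGA5, was at 1.54 FPKM in the knockdown library and 5.33 FPKM in the control (-1.32). The other 2 were the matricellular genes CCN2 (-1.60) and THBS1 (-1.39), which were named after their values were seen. THBS1 was at 0.320 FPKM in the knockdown library and 2.47 FPKM in the control. It passed the mean threshold only through the control library, where it was higher. CCN1 was at -0.92, while the basement membrane genes HSPG2 (-0.09), AGRN (-0.21) and COL18A1 (0.04) were within 0.5 of 0 as reported. With upper quartile scaling HSPG2 was at -0.51 and AGRN at -0.64, and COL18A1 turned sign with the scaling.

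Of 22 proteins that bind integrin tails or set integrin activity, 13 were expressed, 9 at 0.5 or more (40.8% of all expressed genes) and 0 at -0.5 or less (16.3%). Among the 13, FERMT1, TNS2, TNS3 and RAP1B were below 1 FPKM in the control library. They passed the mean threshold only through the knockdown library, where they were higher, so the count of higher genes is in part set by the filter. The median of the 13, 0.78 against 0.30 over all expressed genes, stayed between 0.48 and 0.78 over the scalings, and 11 of the 13 kept their sign. With no filter on low values the list median was 0.35. Below the threshold, SNX27 had 173 counts in the knockdown library against 1174 counts in the control (-1.06). FERMT2 and SNX31 were lower too, while TLN2, TNS1, KRIT1, FERMT3, DAB2 and APBB1IP were higher (all named after their values were seen). FERMT1, the epithelial kindlin that helps activate integrins through the beta tail, was at 9.20 FPKM (3221 counts) in the knockdown and 0.834 FPKM (223 counts) in the control library. Its CPM ratio was 11.0 (9.63 to 12.7) and its difference 2.48. FERMT1 thus differed by more than any of the 9 integrin members.

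TNS4, a tensin of focal adhesions, was at 12.4 FPKM in the knockdown library and 1.99 FPKM in the control (2.16). DOK1, a docking protein that can bind beta tails, was at 12.2 FPKM in the knockdown and 3.04 FPKM in the control (1.71). SNX17, a sorting nexin that recycles beta subunits to the surface, was at 46.8 FPKM in the knockdown and 15.4 FPKM in the control (1.54). TLN1, the talin that connects beta tails to actin, was at 23.5 FPKM in the knockdown library and 15.3 FPKM in the control (0.58). Activators and inhibitors were both among the higher genes, since SHARPIN, an inhibitor that binds alpha tails, was at 1.04 and ITGB1BP1, an inhibitor that binds the ITGB1 tail, at 0.78 (both named after their values were seen).

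Of 34 focal adhesion adaptors and kinases, 29 were expressed, 8 at 0.5 or more (40.8% of all expressed genes) and 3 at -0.5 or less (16.3%). Most lay between these limits, and the median of -0.02, against 0.30 over all expressed genes, lay between -0.37 and -0.02 over the scalings. The kinase SRC was at 11.2 FPKM in the knockdown library and 4.93 FPKM in the control (1.04), GIT1, a paxillin-binding regulator of ARF proteins, at 0.97, and ILK, the pseudokinase that couples beta tails to parvins, at 29.5 FPKM in the knockdown and 14.6 FPKM in the control (0.96). The adaptor CRKL went the other way, at 15.3 FPKM in the knockdown library and 47.4 FPKM in the control (-1.57). PTK2, the focal adhesion kinase, was at 2.53 FPKM in the knockdown and 3.05 FPKM in the control (-0.20).

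Of 17 hemidesmosome and tetraspanin partners, 14 were expressed, 3 at 0.5 or more (40.8% of all expressed genes) and 3 at -0.5 or less (16.3%), with a median of 0.09 that turned sign with the scaling, against 0.30 over all expressed genes. PLEC, the plectin that binds the ITGB4 tail, was at 61.2 FPKM in the knockdown library and 78.9 FPKM in the control (-0.36). CD151, the tetraspanin that associates with laminin-binding integrins, was at 67.7 FPKM in the knockdown and 64.8 FPKM in the control (0.06, with a sign that turned with the scaling). CD151 stayed within 0.5 of 0 over the scalings (-0.43 to 0.06). PLEC lay between -0.84 and -0.62 under the other scalings and after the GC and length trend was taken out. The ITGB4 difference was 1.12 to 1.60 over the same settings. SLC3A2, the CD98 heavy chain that associates with beta tails and with amino acid transporters, was at 117 FPKM in the knockdown library and 37.3 FPKM in the control (1.62). SDC4, a syndecan that acts with fibronectin receptors, was at 98.1 FPKM in the knockdown and 251 FPKM in the control (-1.35), CAV1 at -0.73, and PLAUR, the urokinase receptor, at 22.8 FPKM in the knockdown and 14.1 FPKM in the control (0.66).

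**Figure D5:**
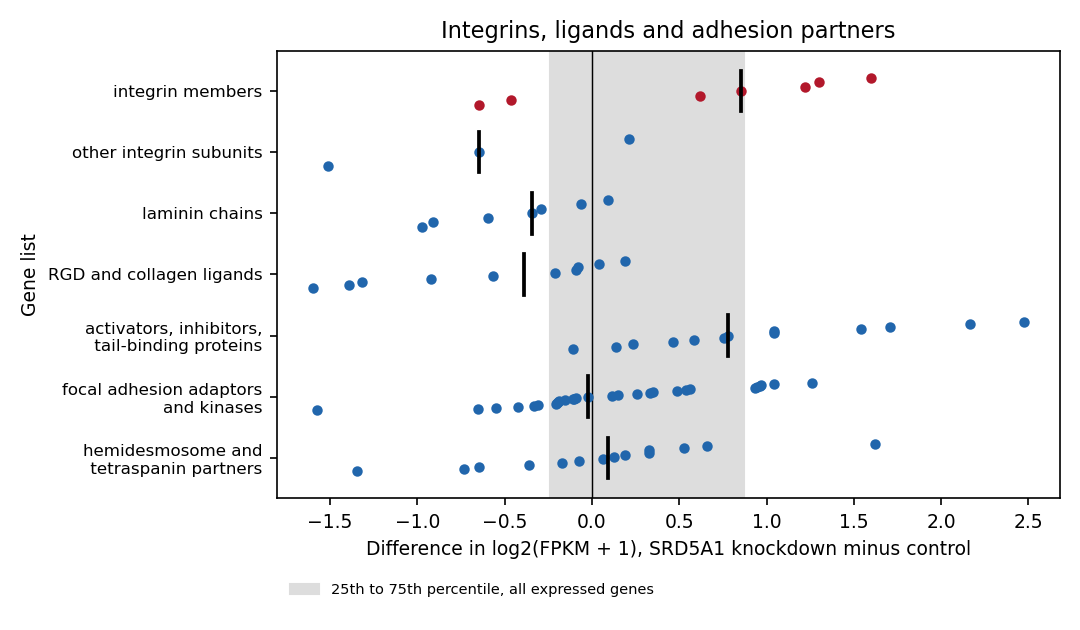
Difference in log2(FPKM + 1), SRD5A1 knockdown minus control, of each expressed gene (points) in the integrin members and 6 lists of related genes, with the list median as a black bar and the 25th to 75th percentile of all expressed genes in grey (-0.24 to 0.87). The median of the tail-binding list is 0.78, and those of the laminin chains (-0.34) and of the RGD and collagen ligands (-0.39) are below 0.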

How the data were processed

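One table of 31798 rows was deposited by the authors, with FPKM and raw counts for 1 SRD5A1 knockdown and 1 control library of HCT116 cells. Its columns were assigned to samples through the tags in the titles. Per the labels' protocols, poly(A) RNA was sequenced as paired ends. The submitters' processing notes list HISAT2 2.0, StringTie 1.3.0 and Bowtie 0.12.2 without saying what each did, and the mouse build mm8. The sources used here do not say how reads were counted or whether strand was used. The deposited identifiers are human, and 69.3% of the 31659 rows found in GENCODE release 29 (GRCh38) have the same position there, so positions are the table's own, on GRCh38. Of the 9 members, 3 (ITGB3, ITGB4 and ITGB5) have the same position in that release and 6 do not, so exon numbers, taken from that release, may differ from the gene models the authors used.

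Rows were summed by symbol (1802 symbols were on more than 1 row). Ratios of CPM (counts scaled to 1000000 in each library) carry exact Clopper-Pearson 95% intervals, and ratios of ratios carry approximate log-scale intervals. Both cover counting error alone and leave out the spread between cultures. Reads lacking molecular identifiers need not be independent molecules, so the intervals may be too narrow even for counting error. GC content and length come from the longest GENCODE transcript, and their trend (quadratic in both) was fitted over expressed genes. TMM used edgeR 4.0.16 on the counts. Steps were run with Python 3.11.15, numpy 2.4.6 and pandas 2.3.3 and were tested on simulated data. The design assumed FPKM alone, so FPKM stayed the main measure and the counts gave depth and intervals. The genes named are the members, SRD5A1, up to 4 genes with the largest differences per list at a mean of at least 5 FPKM (with 1 place kept for a gene that goes against the list's median, where there is one), known partners and ligands, and markers at 0 counts. Markers with counts, ITGA8, ITGB2, ITGB8 and genes that overlap a member's locus are named outside this rule. So are the genes marked as named after their values were seen. A gene that this rule takes is not reported here. Members and lists were chosen with earlier results of these data known.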

Additional observations from a re-analysis of the deposited data

How the results depend on the processing

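The sign of each member's difference was kept in all 8 alternatives run for it (7 for ITGAV and ITGB3, which are below the level at which the GC and length trend was fitted). A change of pseudocount cannot turn a sign, and scalings that lower all knockdown values can turn only that of a higher member. In size, 41 of the alternatives moved a difference by more than its counting interval allows and 29 did not. The share difference of ITGB4 was 24.2 percentage points as reported and 23.2 in CPM, and that of ITGB1 was -22.3 and -20.9. The number of members at least 2-fold higher, 3 as reported, was 1 with the median ratio set to 1, 1 with upper quartile scaling, 2 with a pseudocount of 5 and 2 once GC and length were taken out, and the number 2-fold lower, 0 as reported, was 1 with upper quartile scaling. The median over expressed members was 0.86 as reported and 0.40 with upper quartile scaling. Both values are within its interval, which for so few genes is the full range of the members, so staying within it shows little. Partner ratios were rerun only in CPM and with the highest row per symbol. Those settings could barely move them, so their staying within 1.5 times shows little too. Of 80 list medians under alternatives, 70 kept their sign and stayed within the interval of the reported median. For the shortest lists that interval is the full range of the genes, so a large move can stay within it. The median of the RGD receptor subunits did so, at 0.62 as reported and 0.16 with upper quartile scaling. The median of the hemidesmosome and tetraspanin list was -0.24 with the median ratio set to 1, -0.34 with the upper quartile, -0.12 with TMM and -0.37 once GC and length were taken out. That of the focal adhesion list was 0.15 at a mean of at least 5 FPKM, and that of the RGD receptor subunits was -0.19 with no filter on low values, where ITGAV and ITGB3 enter. The scalings divide the knockdown values by 1.30 (median ratio), 1.40 (upper quartile) or 1.20 (TMM), which moves every difference down. Leaving out a replicate was not possible with 1 library per group. No paired analysis was possible because each group has 1 library. Depth limits ITGB3, which had 16 counts in the knockdown library and 45 counts in the control, and the subunits near 0 counts.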
